A study of Mus musculus with 12 samples.

Results

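The DNA replication and nucleotide synthesis genes are a list of 41 mouse genes whose products license origins, start and move replication forks, supply deoxynucleotides, place histones on new DNA or turn the whole program on at entry to S phase. Members were found by gene symbol in the tables of all 12 libraries. A line was present for 39 of the 41 symbols among 53932 gene identifiers, and all 39 of these were among the 16982 genes tested. Cdt1 and Gins2 were not analysed here. The tables give FPKM, sequenced fragments relative to the length of the transcript and to the size of the library, so that levels can be compared between genes as amounts per length.

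The study measured total RNA of cultured C57BL/6 mouse cells in 4 groups of 3 libraries, in a series about one-carbon metabolites and cell identity. NSC were cortical neural stem cells of embryonic day 14.5, kept as floating neurospheres in EGF and FGF2 (20 ng/mL each). Astrocytes carry the age label embryonic day 14.5 and the tissue label cortex, and were kept in a differentiation medium with 10% serum and B27. The labels give 2 sources for such cultures, postnatal cortex sorted for the surface protein GLAST or dissociated neurospheres, and do not say which was used for these libraries. MIM-Astrocytes were astrocytes moved to MIM, a serum-free medium of DMEM-F12 and Neurobasal with B27, N2, FGF2 at 20 ng/mL and up to 6 added metabolites (the amino acids methionine, cysteine, glycine and threonine, with S-adenosylmethionine and putrescine), and were collected by day 5. Which metabolites were present and on which day these cells were collected is not given. The untreated control stayed in its serum medium, so that serum, FGF2, N2, base medium and metabolites all differ between Astrocytes and MIM-Astrocytes and cannot be told apart. Glioblastoma was a tumour culture with the labels cerebella and E18.5, for which the labels used here do not state how it was made.

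A cell can copy its genome once per cycle because licensing and firing are separated in time. In G1 the origin recognition complex, Cdc6 and Cdt1 load the MCM2 to MCM7 ring on DNA as an inactive helicase. At entry to S phase, kinases recruit Cdc45 and the GINS complex to it, DNA polymerases follow with the sliding clamp PCNA, and ribonucleotide reductase, thymidylate synthase and thymidine kinase raise the supply of precursors. Transcripts of many of these genes are driven by E2F factors once cyclin-dependent kinases have inactivated the retinoblastoma proteins, and most are low in cells that have left the cycle. Neural stem cells divide in culture, whereas mature astrocytes are mostly quiescent.

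The library labels were first set against marker genes. All 8 astrocyte markers reached 1 FPKM in all 3 libraries of Astrocytes and of MIM-Astrocytes, as did 7 in NSC and 6 in Glioblastoma, and all 8 neural stem cell markers did so in NSC, MIM-Astrocytes and Glioblastoma and 6 in Astrocytes. Counts at that level thus did not separate the groups. Summed levels of the astrocyte markers were 1844 to 2155 FPKM in Astrocytes, 1718 to 2100 in MIM-Astrocytes, 873 to 1013 in NSC and 564 to 593 in Glioblastoma. Those of the neural stem cell markers were highest in MIM-Astrocytes, at 4348 to 4732 FPKM, against 2959 to 3479 in NSC, 1026 to 1175 in Glioblastoma and 851 to 1067 in Astrocytes. Gene by gene, however, only 2 of these 8 were called higher in MIM-Astrocytes than in NSC, 1 lower and 5 not called (limma, median -0.11). Of all tested genes, 31.0% were called higher and 24.9% lower in that comparison. Of the 8 astrocyte markers, 3 were higher, 2 lower and 3 not called in MIM-Astrocytes against Astrocytes (limma, median 0.11). These shares, 37.5% higher and 25.0% lower, were near those of all tested genes, 34.8% and 26.6%. Gfap, an intermediate filament of astrocytes and 1 of the 8, was far lower in MIM-Astrocytes than in Astrocytes, whereas the summed markers overlapped between these groups. Gfap was at 259.6, 273 and 241 FPKM in Astrocytes, 7.44, 7.50 and 7.11 in MIM-Astrocytes, 2.95, 3.11 and 3.55 in Glioblastoma and 0.851, 0.883 and 1.16 in NSC. Microglial markers summed to 0.457 to 1.29 FPKM in every library. The 8 fibroblast markers summed to 280.0 to 328.5 FPKM in Astrocytes against 19.4 to 22.1 in MIM-Astrocytes, 1.09 to 1.37 in NSC and 0.654 to 0.830 in Glioblastoma, with 4 of the 8 at 1 FPKM or more in all 3 Astrocytes libraries and Lum listed at 0 there. Neuron markers summed to 104.5 to 109.9 FPKM in Astrocytes, 168.7 to 189.4 in MIM-Astrocytes, 202 to 214 in Glioblastoma and 275 to 303 in NSC, and oligodendrocyte markers to 72.6 to 86.4, 88.05 to 95.3, 32.2 to 34.1 and 147 to 172 in the same order. Whether other cells or the labelled cells themselves express these genes, and the part of this in the differences from Astrocytes, was not tested. In bulk RNA, fewer dividing cells and less RNA per dividing cell cannot be told apart. Libraries of a group correlated at r = 0.968 to 0.977 across genes. Separate cultures are not stated for the 3 libraries of a group, and p-values then describe only how far these libraries spread.

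Replication and nucleotide synthesis genes were low in Astrocytes, intermediate in NSC, and high in MIM-Astrocytes and Glioblastoma. Of the 39 tested, 26 had their group means in the order Astrocytes, NSC, MIM-Astrocytes, Glioblastoma, and 8 more differed from that order only in that MIM-Astrocytes stood above Glioblastoma. The median member was at 1.33 to 1.57 FPKM in the Astrocytes libraries, 5.36 to 5.72 in NSC, 12.7 to 14.6 in MIM-Astrocytes and 18.3 to 20.2 in Glioblastoma, so the ranges of the 4 groups did not overlap. Of the 39, 10 were below 1 FPKM in all 3 Astrocytes libraries, whereas 3 were in NSC, 1 was in MIM-Astrocytes and 0 were in Glioblastoma.

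**Figure D1:**
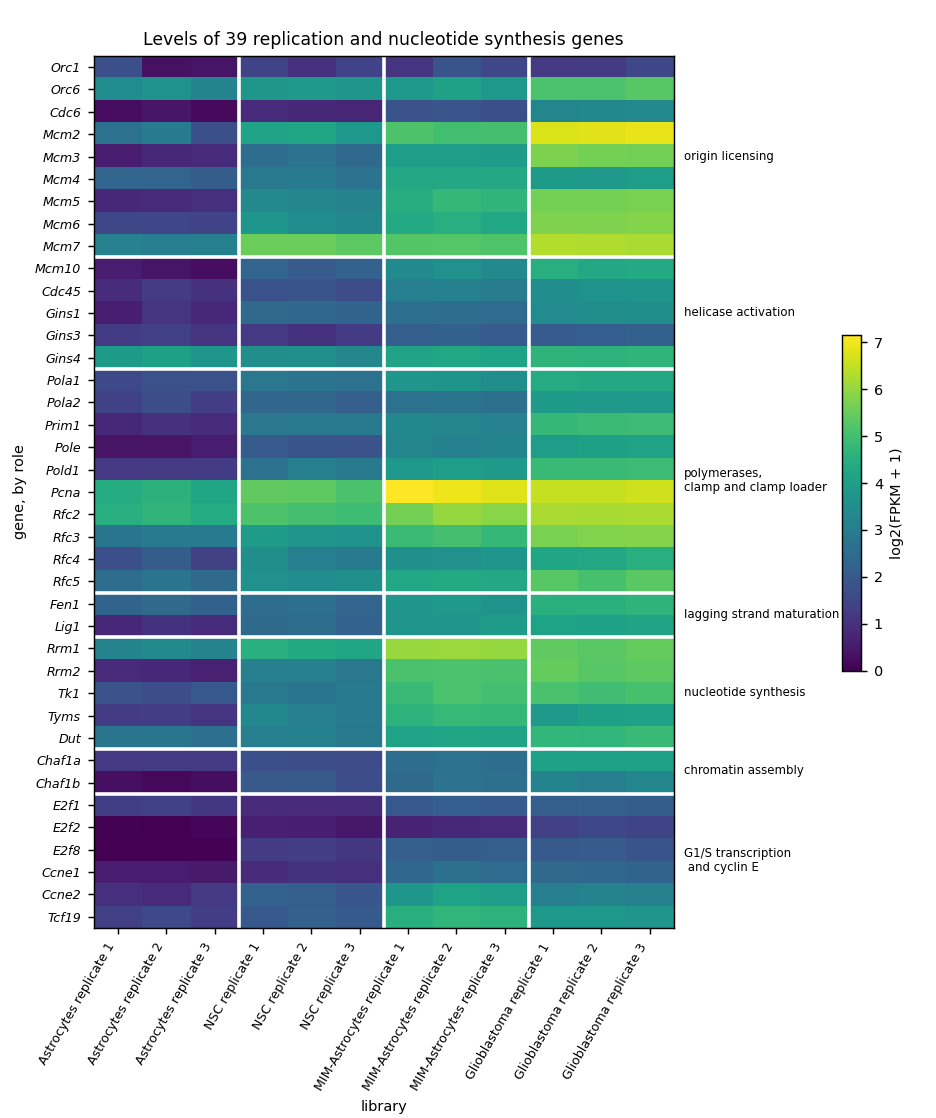
Each row is 1 of the 39 genes, ordered by role, each column is 1 of the 12 libraries, and the colour is the level as log2(FPKM + 1). Rows brighten from Astrocytes on the left through NSC to MIM-Astrocytes and Glioblastoma on the right, apart from a few such as Orc1, Orc6, Gins3 and Gins4 that change little on the left side.

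Differences were tested as log2(FPKM + 1) with limma over all 12 libraries, and called means an adjusted p under 0.05. The added 1 FPKM shrinks the differences of genes near or under 1 FPKM. In MIM-Astrocytes against Astrocytes, 38 of the 39 tested members were called higher and 0 lower, where 34.8% of all tested genes were called higher and 26.6% lower. The median difference of the members was 2.06 on the log2 scale, against 0.09 over all tested genes, and 33 members were higher by at least 2-fold, which 9.1% of all genes were. In NSC against Astrocytes 34 members were higher and 2 lower (background 37.7% and 33.4%), with a median of 1.04 against 0.07. In Glioblastoma against Astrocytes 38 were higher and 0 lower (background 47.0% and 31.3%), with a median of 2.63 against 0.23. These 3 comparisons share the Astrocytes libraries and are not independent of each other. E2f2 reached 1 FPKM only in the Glioblastoma libraries, and so was tested only through the group where it is highest. Its place in the counts of comparisons with Glioblastoma is therefore not independent of the filter.

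The other comparisons set the 3 groups with higher levels against each other. Glioblastoma exceeded NSC in 38 members and was lower in 0 (background 44.8% and 25.1%), with a median of 1.61 against 0.19 over all genes. MIM-Astrocytes exceeded NSC in 34 members and was lower in 1 (background 31.0% and 24.9%), with a median of 1.02 against 0.02. Against Glioblastoma, MIM-Astrocytes was higher in 6 members and lower in 27 (background 28.3% and 41.5%), with a median of -0.66 against -0.13. That last split moved with the scaling of the libraries, to 8 higher and 25 lower with median-of-ratios scaling and to 9 higher and 22 lower with every library brought to a common total.

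The promoters are given as a description. Many of the genes are driven by E2F factors, as stated above, so matches to E2F-type letters are not independent of how the list was built. RefSeq promoters of GRCm38.p6, from 250 bases before the start to 50 after it, were found by symbol for 33 of the 39 members. Letters of an E2F-type site (TTTCCCGC, TTTGGCGC, TTTCGCGC or TTTGCCGC, on either strand) stood in 12 of the 33, which is 36.4%. Of all 27025 symbols, 2.6% had them in any of their promoter windows. The 12 were Cdc6, E2f2, Gins3, Lig1, Mcm3, Mcm5, Mcm6, Mcm7, Orc1, Pola1, Pold1 and Rfc3. The CCAAT box, in letters CCAAT on either strand, stood in 60.6% of the 33 against 41.1% of all, and CHR-type letters of mitotic genes (TTTGAA or TTCGAA, either strand) in 24.2% against 21.7%. A match describes letters and does not show that a factor binds there.

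The 250 bases before the start are shown for 3 genes with a match well upstream of the start: 2 helicase subunits, Mcm5 (chr8:75109259-75109508, plus strand) and Mcm6 (chr1:128359706-128359955, minus strand), and the polymerase subunit Pola1 (chrX:93632156-93632405, minus strand). Capitals mark the E2F-type letters, and sequences are RefSeq's, written 5′ to 3′ on the strand of the gene.
Mcm5: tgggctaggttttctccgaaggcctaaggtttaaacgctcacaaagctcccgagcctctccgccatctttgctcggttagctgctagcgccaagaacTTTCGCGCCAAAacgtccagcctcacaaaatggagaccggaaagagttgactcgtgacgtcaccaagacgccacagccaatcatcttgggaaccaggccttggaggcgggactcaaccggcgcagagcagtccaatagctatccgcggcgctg
Mcm6: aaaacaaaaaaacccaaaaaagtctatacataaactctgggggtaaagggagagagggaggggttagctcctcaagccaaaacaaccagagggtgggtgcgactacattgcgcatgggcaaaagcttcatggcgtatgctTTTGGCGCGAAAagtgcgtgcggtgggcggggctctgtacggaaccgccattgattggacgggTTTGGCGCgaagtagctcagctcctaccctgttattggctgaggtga
Pola1: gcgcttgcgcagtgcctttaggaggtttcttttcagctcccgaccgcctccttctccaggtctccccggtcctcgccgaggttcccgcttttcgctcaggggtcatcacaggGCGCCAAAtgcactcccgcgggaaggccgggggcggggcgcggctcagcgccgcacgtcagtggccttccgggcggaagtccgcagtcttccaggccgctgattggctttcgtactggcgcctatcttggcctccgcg
In Mcm5 and Mcm6 a pair of overlapping matches on opposite strands forms 1 longer run of capitals, and Mcm6 holds a further match nearer to its start.

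Short stretches around the first match are given for the other 9 genes, so that the common core can be compared. They lie at chr11:98908003-98908030 for Cdc6, chr4:108579417-108579444 for Orc1, chr8:95633508-95633535 for Gins3, chr7:13278842-13278869 for Lig1 and chr4:136172303-136172323 for E2f2 on the plus strand. On the minus strand they lie at chr1:20820276-20820303 for Mcm3, chr5:138172031-138172058 for Mcm7, chr7:44548766-44548786 for Pold1 and chr5:151651201-151651228 for Rfc3.
Cdc6: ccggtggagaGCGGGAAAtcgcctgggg
Orc1: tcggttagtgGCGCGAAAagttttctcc
Mcm3: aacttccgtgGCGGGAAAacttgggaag
Mcm7: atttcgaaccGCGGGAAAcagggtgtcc
Gins3: cgagtgcggcGCGGGAAAgcgagtttga
Pold1: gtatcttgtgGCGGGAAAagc
Rfc3: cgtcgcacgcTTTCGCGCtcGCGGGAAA
Lig1: gccaaagtgcGCGCGAAAtctgtgtggc
E2f2: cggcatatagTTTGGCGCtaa
Cdc6, Mcm3, Mcm7, Gins3, Pold1 and Rfc3 share the letters GCGGGAAA, which is TTTCCCGC read from the opposite strand, and Orc1 and Lig1 share GCGCGAAA.

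Origin licensing genes were led by the subunits of the helicase ring. In MIM-Astrocytes against Astrocytes, 8 of the 9 tested were higher, 0 were lower and Orc1 was not called, with a median log2 difference of 2.10. Again 8 of 9 were higher, with Orc1 not called, in NSC against Astrocytes (median 1.58) and in Glioblastoma against Astrocytes (median 3.16).

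Mcm5 (chr8:75109569-75128439, plus strand, GRCm38), a subunit at the gate through which the ring closes on DNA, had the largest difference of the licensing genes in MIM-Astrocytes. It stood at 0.770, 0.804 and 0.971 FPKM in Astrocytes, 9.22, 8.81 and 8.08 in NSC, 20.96, 26.1 and 24.4 in MIM-Astrocytes and 49.1, 49.2 and 50.9 in Glioblastoma. No library of any group overlapped another group. The difference was 3.74 (SE 0.08, limma adjusted p = 8.9e-11) in MIM-Astrocytes, 2.39 (SE 0.08, limma adjusted p = 1.36e-09) in NSC and 4.78 (SE 0.08, limma adjusted p = 7.67e-12) in Glioblastoma, each against Astrocytes.

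Mcm2 (chr6:88883474-88898780, minus strand), which also carries parental histones at the fork, had the highest mean of this role over the 12 libraries, although Mcm7 was higher in every group but Glioblastoma. Its levels were 5.40, 6.84 and 2.38 FPKM in Astrocytes, 16.3, 17.6 and 13.1 in NSC, 34.8, 30.4 and 31.9 in MIM-Astrocytes and 107, 112 and 118 in Glioblastoma. The Astrocytes libraries spread more for Mcm2 than for its partners, with replicate 3 at 2.38 and replicate 2 at 6.84 FPKM, but lay below every other library. The difference from Astrocytes was 2.59 (SE 0.25, limma adjusted p = 7.86e-06) in MIM-Astrocytes, 1.58 (SE 0.25, limma adjusted p = 0.000236) in NSC and 4.35 (SE 0.25, limma adjusted p = 6.02e-08) in Glioblastoma.

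Mcm3, a further ring subunit (chr1:20802968-20820312, minus strand), was at 0.489, 0.740 and 0.835 FPKM in Astrocytes, 4.92, 5.57 and 4.46 in NSC, 15.1, 14.8 and 14.2 in MIM-Astrocytes and 52.3, 48.9 and 48.7 in Glioblastoma. In each Astrocytes library it stood below 1 FPKM. Its difference of 4.92 (SE 0.09, limma adjusted p = 1.01e-11) was the largest of the 39 in Glioblastoma against Astrocytes, and that of 3.09 (SE 0.09, limma adjusted p = 6.3e-10) the largest in Glioblastoma against NSC, both on the log2(FPKM + 1) scale. By the ratio of mean FPKM, Cdc6 had the larger change in Glioblastoma against NSC, 12.02-fold against 10.03-fold for Mcm3, and E2f8, which was near 0 in Astrocytes, the larger in Glioblastoma against Astrocytes.

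Mcm6 (chr1:128331590-128359664, minus strand) followed the same order, at 1.93, 1.84 and 1.72 FPKM in Astrocytes, 12.6, 10.2 and 9.09 in NSC, 19.8, 21.4 and 18.52 in MIM-Astrocytes and 53.4, 53.02 and 55.2 in Glioblastoma. Mcm4 (chr16:15623897-15637400, minus strand), the subunit with a long tail that the Dbf4-dependent kinase phosphorylates, did not. It was at 4.003, 3.995 and 3.30 FPKM in Astrocytes, 6.39, 6.75 and 5.64 in NSC, 18.8, 19.0 and 18.7 in MIM-Astrocytes and 13.99, 13.3 and 14.8 in Glioblastoma, so that every MIM-Astrocytes library stood above every Glioblastoma library, with a difference of 0.40 (SE 0.08, limma adjusted p = 0.000752).

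Mcm7 (chr5:138164583-138172422, minus strand), whose gene also holds the miR-106b cluster in an intron, was the 1 member lower in MIM-Astrocytes than in NSC. It was at 7.97, 7.33 and 7.76 FPKM in Astrocytes, 45.4, 45.4 and 39.5 in NSC, 36.3, 37.4 and 35.1 in MIM-Astrocytes and 79.2, 76.99 and 74.1 in Glioblastoma. MIM-Astrocytes lay between Astrocytes and NSC without overlap with either, with a difference from NSC of -0.25 (SE 0.06, limma adjusted p = 0.00591). With every library brought to a common total that difference was -0.19 and was not called (limma adjusted p = 0.181).

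The make-up of the ring's transcripts therefore differed between groups, a comparison chosen after the values were seen and described without a test. Summed FPKM of Mcm2 to Mcm7 averaged 19.7 in Astrocytes, 89.7 in NSC, 146 in MIM-Astrocytes and 357 in Glioblastoma. Mcm4 made up 19.2% ± 0.540 (SD, n = 3) of that sum in Astrocytes, 6.99% ± 0.216 in NSC, 12.9% ± 0.175 in MIM-Astrocytes and 3.93% ± 0.163 in Glioblastoma. Mcm7 made up 48.5% in NSC and 39.5% in Astrocytes, but 24.9% in MIM-Astrocytes and 21.5% in Glioblastoma. The most abundant subunit exceeded the least abundant by 2.40 to 2.52 times in the MIM-Astrocytes libraries. This ratio was 7.62 to 8.42 in Glioblastoma, 8.15 to 9.23 in NSC and 9.29 to 16.3 in Astrocytes, so the 6 subunits were nearest to equal listed levels per length in MIM-Astrocytes. Outside Glioblastoma it was Mcm7 over Mcm3, and Mcm3 stood below 1 FPKM in each Astrocytes library. The exons of Mcm7 overlap the opposite-strand genes Cops6 and Ap4m1, whose part in its levels and shares was not tested.

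**Figure D2:**
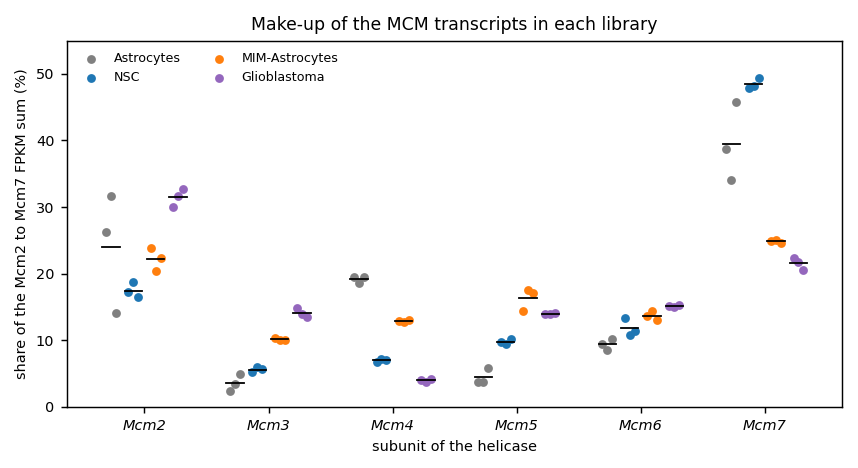
Points are single libraries, 3 per group, black lines are group means, and the vertical axis is each subunit's share (%) of the summed FPKM of Mcm2 to Mcm7. The Mcm4 share is 19.2% in Astrocytes and 3.93% in Glioblastoma, and the Mcm7 share is highest in NSC at 48.5%.

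The loaders of the ring behaved less alike. Cdc6 (chr11:98907801-98923940, plus strand), the ATPase that brings the ring to the origin recognition complex, was at 0.178, 0.360 and 0.140 FPKM in Astrocytes, 0.805, 0.748 and 0.700 in NSC, 2.58, 2.68 and 2.38 in MIM-Astrocytes and 8.70, 9.08 and 9.29 in Glioblastoma. It was below 1 FPKM in every Astrocytes and NSC library, and its difference was 1.02 (SE 0.07, limma adjusted p = 1.11e-06) in MIM-Astrocytes against NSC and -1.499 (SE 0.07, limma adjusted p = 2.47e-08) against Glioblastoma.

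Orc6 (chr8:85299632-85308278, plus strand), the smallest origin recognition subunit, whose exons overlap the opposite-strand gene Vps35, already had signal in Astrocytes. It was at 10.01, 11.6 and 8.36 FPKM in Astrocytes, 12.7, 13.5 and 12.6 in NSC, 12.96, 15.9 and 13.1 in MIM-Astrocytes and 33.8, 34.1 and 38.1 in Glioblastoma. The rise over Astrocytes was small in MIM-Astrocytes, 0.45 (SE 0.11, limma adjusted p = 0.00489), and in NSC, 0.35 (SE 0.11, limma adjusted p = 0.0155), and larger in Glioblastoma, 1.73 (SE 0.11, limma adjusted p = 1.3e-07). With a common total the first was 0.14 and not called (limma adjusted p = 0.141), and that in NSC turned to -0.014. The NSC call was also lost without NSC replicate 2 (0.32, 0.0503) or Astrocytes replicate 3 (0.24, 0.0557). MIM-Astrocytes and NSC overlapped, with a difference of 0.1 (SE 0.11, limma adjusted p = 0.473).

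Orc1 (chr4:108579423-108614833, plus strand), an ATPase of the origin recognition complex, was called in none of the 6 comparisons. It was at 2.36, 0.258 and 0.333 FPKM in Astrocytes, 1.79, 1.03 and 1.72 in NSC, 1.11, 2.62 and 1.86 in MIM-Astrocytes and 1.30, 1.31 and 1.92 in Glioblastoma. The first Astrocytes library was the second highest of the 12, and the other 2 were the lowest. Without Astrocytes replicate 1, Orc1 was higher than in Astrocytes by 1.11 in MIM-Astrocytes (limma adjusted p = 0.00244), by 0.94 in NSC (0.00475) and by 0.95 in Glioblastoma (0.00391). The exons of Orc1 overlap an opposite-strand gene, and the authors' interval spans 94.6% to 135% of the value to each side in the Astrocytes and MIM-Astrocytes libraries and 33.1% to 127% in those of NSC and Glioblastoma.

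**Figure D3:**
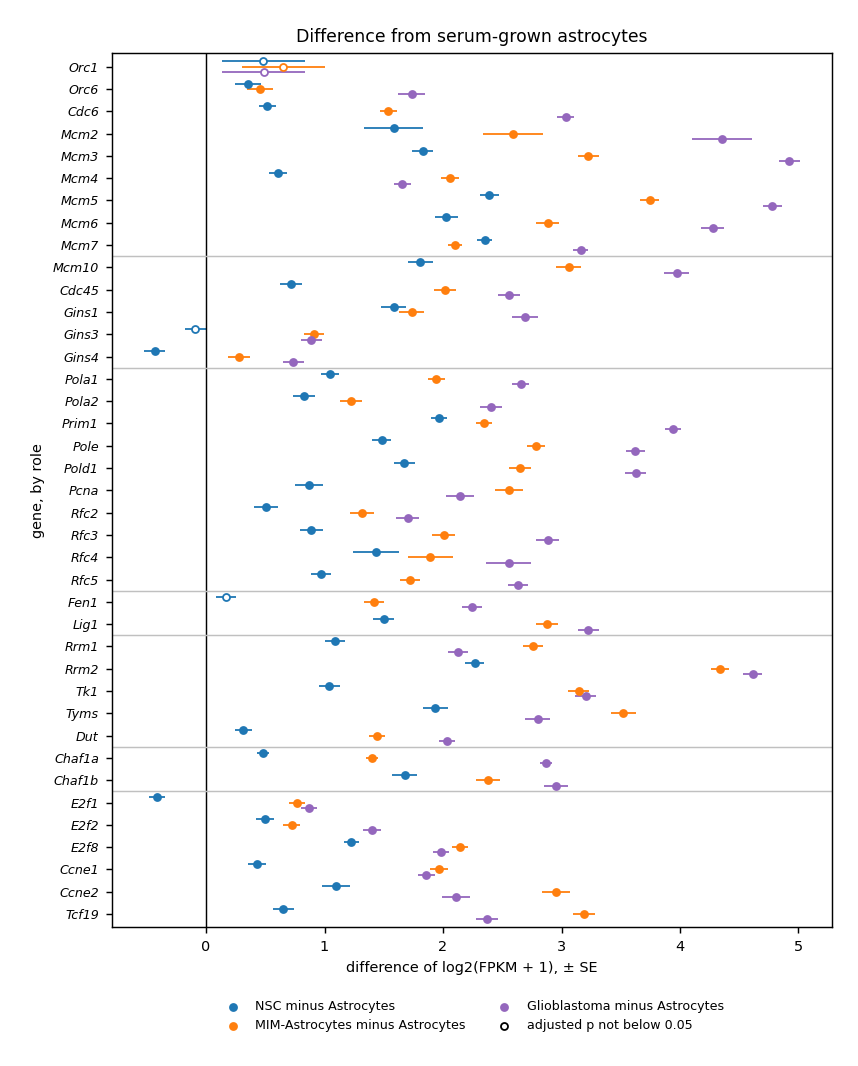
Points are the differences of log2(FPKM + 1) from Astrocytes for NSC, MIM-Astrocytes and Glioblastoma, with bars of 1 standard error from limma, for the 39 genes by role; open points have an adjusted p of 0.05 or more. NSC points lie nearest to 0 for most genes, and open points are those of Orc1 in all 3 groups and of Gins3 and Fen1 in NSC.

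Helicase activation genes rose in 5 of 5 in MIM-Astrocytes against Astrocytes (median 1.74, background 34.8%) and in 5 of 5 in Glioblastoma (median 2.56, background 47.0%). In NSC 3 of 5 were higher, Gins4 was lower and Gins3 was not called (background 37.7% higher and 33.4% lower).

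Mcm10 (chr2:4989714-5012791, minus strand), needed to activate the loaded helicase, was at 0.469, 0.328 and 0.173 FPKM in Astrocytes, 3.98, 3.13 and 3.78 in NSC, 9.56, 11.1 and 9.37 in MIM-Astrocytes and 21.4, 18.3 and 19.5 in Glioblastoma. The 4 groups did not overlap. The difference from Astrocytes was 3.06 (SE 0.11, limma adjusted p = 2.33e-09) in MIM-Astrocytes and 3.97 (SE 0.11, limma adjusted p = 1.43e-10) in Glioblastoma.

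Cdc45 (chr16:18780447-18811987, minus strand), the helicase's partner protein, was at 0.875, 1.40 and 1.02 FPKM in Astrocytes, 2.51, 2.59 and 2.19 in NSC, 7.40, 7.88 and 7.11 in MIM-Astrocytes and 10.4, 11.4 and 12.1 in Glioblastoma. Its difference in MIM-Astrocytes was 2.02 from Astrocytes and 1.30 from NSC. Gins1 (chr2:150905400-150931280, plus strand), 1 of the 4 GINS subunits, was at 0.510, 1.12 and 0.732 FPKM in Astrocytes, 4.59, 4.38 and 3.95 in NSC, 5.07, 4.99 and 4.64 in MIM-Astrocytes and 9.88, 10.6 and 10.8 in Glioblastoma. It was called higher than Astrocytes in both MIM-Astrocytes (1.74) and NSC (1.58), whereas those groups differed by 0.15 (SE 0.11, limma adjusted p = 0.257) and did not overlap.

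Gins4 (chr8:23226616-23237659, minus strand) stood apart from Gins1 in that serum-grown Astrocytes had more of it than NSC. It was at 13.9, 15.7 and 12.5 FPKM in Astrocytes, 10.5, 10.9 and 8.98 in NSC, 16.4, 18.4 and 16.8 in MIM-Astrocytes and 23.8, 23.4 and 24.5 in Glioblastoma. NSC was lower than Astrocytes with no overlap, a difference of -0.43 (SE 0.09, limma adjusted p = 0.00136). MIM-Astrocytes was higher than Astrocytes by 0.28 (SE 0.09, limma adjusted p = 0.02), a call that was lost without Astrocytes replicate 1 (0.27, limma adjusted p = 0.051), without Astrocytes replicate 3 (0.20, 0.0753) or without MIM-Astrocytes replicate 2 (0.23, 0.0735), and the sign turned with a common total (-0.040). Glioblastoma was higher by 0.73 (SE 0.09, limma adjusted p = 2.27e-05), and by 0.15 with a common total (0.138).

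Gins3 (chr8:95633453-95645060, plus strand) was at 1.36, 1.57 and 1.12 FPKM in Astrocytes, 1.26, 1.01 and 1.35 in NSC, 3.44, 3.63 and 3.15 in MIM-Astrocytes and 3.11, 3.38 and 3.54 in Glioblastoma. Astrocytes and NSC overlapped, as did MIM-Astrocytes and Glioblastoma, and the 2 pairs were apart. The difference was -0.09 (SE 0.09, limma adjusted p = 0.372) in NSC against Astrocytes and 0.91 (SE 0.09, limma adjusted p = 6.86e-06) in MIM-Astrocytes against Astrocytes. With a common total NSC was called lower than Astrocytes, at -0.32 (limma adjusted p = 0.0104).

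Polymerases, the sliding clamp and its loader were all 10 called higher than Astrocytes in MIM-Astrocytes (median 1.98, background 34.8%), NSC (median 1.01, background 37.7%) and Glioblastoma (median 2.64, background 47.0%). Against NSC, MIM-Astrocytes was higher in 9 of 10, with Rfc4 not called (background 31.0% higher). Against Glioblastoma it was lower in 9 and higher in 1, Pcna (background 41.5% lower and 28.3% higher).

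Pcna (chr2:132249162-132253314, minus strand), the clamp that tethers polymerases to DNA, had the highest mean over the 12 libraries of the 39 genes. It was at 20.5, 23.1 and 17.8 FPKM in Astrocytes, 41.2, 40.1 and 32.9 in NSC, 140.5, 124 and 111 in MIM-Astrocytes and 90.6, 90.3 and 98.5 in Glioblastoma. Each MIM-Astrocytes library exceeded each Glioblastoma library, by 0.42 (SE 0.12, limma adjusted p = 0.00964), and the mean exceeded that of Astrocytes 6.13-fold (2.56 (SE 0.12, limma adjusted p = 2.34e-08)). Reads of a gene and its processed copies may be shared: Pcna-ps2 was listed at 21.0 to 23.3 FPKM in MIM-Astrocytes against 1.45 to 1.62 in Glioblastoma, and its part in the Pcna values was not tested.

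Pole (chr5:110286306-110337474, plus strand), the catalytic subunit of the leading-strand polymerase, had the largest difference of this role in MIM-Astrocytes. It was at 0.296, 0.289 and 0.470 FPKM in Astrocytes, 3.18, 2.60 and 2.56 in NSC, 8.72, 7.84 and 8.35 in MIM-Astrocytes and 15.1, 15.5 and 16.3 in Glioblastoma. All 3 Astrocytes libraries were below 0.5 FPKM. The difference was 2.78 (SE 0.08, limma adjusted p = 5.78e-10) in MIM-Astrocytes and 1.48 (SE 0.08, limma adjusted p = 4.68e-08) in NSC.

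Pold1, the catalytic subunit of the lagging-strand polymerase (chr7:44532746-44548849, minus strand), was at 1.28, 1.32 and 1.39 FPKM in Astrocytes, 5.47, 7.55 and 6.41 in NSC, 12.97, 14.6 and 13.3 in MIM-Astrocytes and 27.6, 26.96 and 28.8 in Glioblastoma, with a difference of 2.65 in MIM-Astrocytes and 3.63 in Glioblastoma. The primase and polymerase alpha, which start each new strand, rose less in MIM-Astrocytes than in Glioblastoma. Prim1 (chr10:128015168-128030037, plus strand), the catalytic primase subunit, was at 0.759, 1.04 and 0.824 FPKM in Astrocytes, 6.17, 6.39 and 6.35 in NSC, 9.04, 8.51 and 7.98 in MIM-Astrocytes and 26.2, 28.1 and 28.9 in Glioblastoma. Glioblastoma exceeded MIM-Astrocytes 3.26-fold in mean FPKM, a log2 difference of -1.60 (SE 0.07, limma adjusted p = 9.99e-09) for MIM-Astrocytes against Glioblastoma, whereas MIM-Astrocytes exceeded NSC by 0.38 (SE 0.07, limma adjusted p = 0.000732).

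Pola2 (chr19:5940542-5964202, minus strand), the accessory subunit, had the smallest difference of this role in MIM-Astrocytes on the log2(FPKM + 1) scale, whereas by the ratio of means Rfc2 did (2.56-fold against 3.06-fold). It was at 1.68, 2.22 and 1.45 FPKM in Astrocytes, 4.16, 4.10 and 3.49 in NSC, 5.39, 5.69 and 5.26 in MIM-Astrocytes and 13.9, 13.4 and 13.5 in Glioblastoma. The groups did not overlap, and the differences were 1.22 (SE 0.09, limma adjusted p = 1.24e-06) from Astrocytes and 0.39 (SE 0.09, limma adjusted p = 0.00486) from NSC. Pola1 (chrX:93304767-93632155, minus strand), the catalytic subunit, was at 1.997, 2.43 and 2.39 FPKM in Astrocytes, 6.19, 5.72 and 5.36 in NSC, 12.2, 12.02 and 10.6 in MIM-Astrocytes and 20.2, 19.3 and 19.4 in Glioblastoma.

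The clamp loader subunits Rfc2, Rfc3 and Rfc5 were higher in Astrocytes than the polymerase and primase genes. Rfc4, at a mean of 2.44 FPKM there, was near Pola1 at 2.27. The exons of Rfc2, Rfc4 and Rfc5 overlap opposite-strand genes (Lat2, Eif4a2 and Wsb2), whose part in these levels was not tested. Rfc2 (chr5:134581366-134601805, plus strand) was at 21.5, 24.7 and 20.2 FPKM in Astrocytes, 34.2, 31.96 and 29.4 in NSC, 49.03, 63.3 and 57.7 in MIM-Astrocytes and 73.8, 73.4 and 74.6 in Glioblastoma. Rfc3 (chr5:151642756-151651242, minus strand) was at 5.86, 6.65 and 6.63 FPKM in Astrocytes, 14.5, 12.2 and 11.4 in NSC, 28.3, 32.02 and 25.8 in MIM-Astrocytes and 51.05, 54.6 and 54.9 in Glioblastoma, and Rfc5 (chr5:117378103-117389047, minus strand) was at 4.91, 5.71 and 4.53 FPKM in Astrocytes, 11.2, 10.2 and 11.0 in NSC, 18.2, 19.5 and 18.9 in MIM-Astrocytes and 38.1, 32.5 and 38.8 in Glioblastoma. Each of these 3 was in the order Astrocytes, NSC, MIM-Astrocytes, Glioblastoma without overlap. In NSC against Astrocytes Rfc2 had a difference of 0.51 (SE 0.10, limma adjusted p = 0.00102), which was 0.12 and not called with a common total (limma adjusted p = 0.268). Rfc4 (chr16:23113943-23127737, minus strand) spread more, at 2.36, 3.33 and 1.62 FPKM in Astrocytes, 10.6, 7.48 and 6.64 in NSC, 10.9, 11.1 and 12.5 in MIM-Astrocytes and 17.3, 17.98 and 21.2 in Glioblastoma, and MIM-Astrocytes differed from NSC by 0.46 (SE 0.19, limma adjusted p = 0.0658). Without NSC replicate 1 that difference was 0.63 and was called (limma adjusted p = 0.0168), and leaving out Astrocytes replicate 2 (0.036) or 3 (0.0369) also let it pass at an unchanged size.

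Both genes of lagging strand maturation were higher than Astrocytes in MIM-Astrocytes and in Glioblastoma, and 1 of the pair was in NSC. Lig1 (chr7:13277283-13311433, plus strand), the ligase that seals Okazaki fragments, was at 0.729, 1.05 and 0.878 FPKM in Astrocytes, 4.51, 4.72 and 3.78 in NSC, 12.2, 12.1 and 14.2 in MIM-Astrocytes and 16.6, 16.0 and 17.2 in Glioblastoma. The groups did not overlap, and the difference in MIM-Astrocytes was 2.88 (SE 0.09, limma adjusted p = 1.13e-09) from Astrocytes and -0.35 (SE 0.09, limma adjusted p = 0.00545) from Glioblastoma. The latter was -0.17 and not called with median-of-ratios scaling (limma adjusted p = 0.0775). Fen1 (chr19:10199132-10204169, minus strand), the nuclease that trims the flaps of these fragments, was at 3.95, 4.53 and 3.64 FPKM in Astrocytes, 4.88, 5.06 and 4.06 in NSC, 12.3, 13.3 and 11.69 in MIM-Astrocytes and 22.2, 22.4 and 23.9 in Glioblastoma. NSC overlapped Astrocytes, with a difference of 0.17 (SE 0.09, limma adjusted p = 0.104). It was called without NSC replicate 3 (0.25, limma adjusted p = 0.0222) or without Astrocytes replicate 2 (0.24, 0.0356), and turned to -0.16 with a common total.

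Nucleotide synthesis genes had the largest median difference of all roles in MIM-Astrocytes against Astrocytes on the log2(FPKM + 1) scale, 3.15, with 5 of 5 called higher. In NSC the 5 were also higher (median 1.09), and likewise in Glioblastoma (median 2.80). In MIM-Astrocytes against Glioblastoma 2 of the 5 were higher, 2 lower and 1 not called.

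Rrm2 (chr12:24708241-24714146, plus strand), the small subunit of ribonucleotide reductase that is present in S phase, had the largest difference of the 39 genes in MIM-Astrocytes against Astrocytes on the log2(FPKM + 1) scale, where E2f8, near 0 in Astrocytes, is held down by the added 1. It was at 0.787, 0.750 and 0.563 FPKM in Astrocytes, 7.66, 7.65 and 6.27 in NSC, 33.2, 33.5 and 33.3 in MIM-Astrocytes and 42.8, 38.4 and 40.6 in Glioblastoma. Every Astrocytes library was below 1 FPKM, and the difference was 4.34 (SE 0.08, limma adjusted p = 2.83e-11) in MIM-Astrocytes, 2.27 (SE 0.08, limma adjusted p = 1.76e-09) in NSC and 4.61 (SE 0.08, limma adjusted p = 8.31e-12) in Glioblastoma. Glioblastoma was above MIM-Astrocytes (-0.27 (SE 0.08, limma adjusted p = 0.0101) for MIM-Astrocytes against Glioblastoma), a call lost with median-of-ratios scaling (-0.09, limma adjusted p = 0.234).

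Rrm1 (chr7:102441695-102469771, plus strand), the large subunit, was at 8.24, 9.67 and 8.15 FPKM in Astrocytes, 22.0, 19.1 and 17.7 in NSC, 64.5, 65.8 and 63.5 in MIM-Astrocytes and 41.4, 38.9 and 43.1 in Glioblastoma. It was highest in MIM-Astrocytes, above Glioblastoma by 0.64 (SE 0.08, limma adjusted p = 6.03e-05) and above NSC by 1.68 (SE 0.08, limma adjusted p = 1.12e-07). Levels of Rrm1 and Rrm2 per length were thus closer to each other in Glioblastoma, with means of 41.1 ± 2.09 and 40.6 ± 2.19 FPKM (SD, n = 3), than in MIM-Astrocytes, with 64.6 ± 1.12 and 33.4 ± 0.181, or in Astrocytes, with 8.69 ± 0.852 and 0.700 ± 0.120.

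Thymidylate synthase, Tyms (chr5:30058202-30073617, minus strand), makes the thymine nucleotide from deoxyuridylate with a one-carbon unit from folate. It was at 1.37, 1.47 and 1.09 FPKM in Astrocytes, 9.15, 7.54 and 6.86 in NSC, 23.7, 26.7 and 26.1 in MIM-Astrocytes and 13.5, 15.8 and 15.9 in Glioblastoma. All MIM-Astrocytes libraries stood above all Glioblastoma libraries (0.72 (SE 0.11, limma adjusted p = 0.000135)), and above Astrocytes by 3.52 (SE 0.11, limma adjusted p = 8.91e-10).

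Thymidine kinase, Tk1 (chr11:117815526-117826092, minus strand), salvages thymidine, and was at 2.52, 2.30 and 2.91 FPKM in Astrocytes, 6.41, 5.91 and 6.70 in NSC, 27.4, 33.6 and 31.0 in MIM-Astrocytes and 33.2, 29.9 and 32.6 in Glioblastoma. MIM-Astrocytes and Glioblastoma overlapped, with a difference of -0.058 (SE 0.09, limma adjusted p = 0.573) that turned to 0.12 with median-of-ratios scaling. MIM-Astrocytes exceeded NSC by 2.11 (SE 0.09, limma adjusted p = 3.35e-08). Dut (chr2:125247190-125258608, plus strand), the hydrolase that keeps uracil out of DNA, changed least of this role. Its levels were 5.86, 5.83 and 5.15 FPKM in Astrocytes, 7.52, 7.81 and 6.41 in NSC, 16.8, 17.2 and 16.9 in MIM-Astrocytes and 25.7, 25.2 and 27.2 in Glioblastoma. The difference was 1.44 (SE 0.07, limma adjusted p = 3.53e-08) in MIM-Astrocytes and 0.32 (SE 0.07, limma adjusted p = 0.0024) in NSC, and the latter was -0.030 and not called with a common total (limma adjusted p = 0.764).

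Both large subunits of the chromatin assembly factor, which places new histones behind the fork, were higher than Astrocytes in each of the other groups. Chaf1a (chr17:56040439-56072289, plus strand) was at 1.29, 1.33 and 1.33 FPKM in Astrocytes, 2.33, 2.27 and 2.10 in NSC, 4.87, 5.49 and 4.96 in MIM-Astrocytes and 15.99, 15.9 and 15.9 in Glioblastoma. Chaf1b (chr16:93883901-93906115, plus strand) was at 0.229, 0.103 and 0.203 FPKM in Astrocytes, 3.01, 3.10 and 2.24 in NSC, 4.59, 5.58 and 5.25 in MIM-Astrocytes and 8.40, 7.37 and 8.63 in Glioblastoma. Chaf1b was below 1 FPKM in each Astrocytes library, whereas Chaf1a was above 1. In MIM-Astrocytes the difference was 1.40 (SE 0.05, limma adjusted p = 3.14e-09) for Chaf1a and 2.38 (SE 0.10, limma adjusted p = 1.34e-08) for Chaf1b. MIM-Astrocytes was lower than Glioblastoma in both, with -1.47 (SE 0.05, limma adjusted p = 2.17e-09) for Chaf1a and -0.57 (SE 0.10, limma adjusted p = 0.000555) for Chaf1b.

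Regulators of entry to S phase rose in 6 of 6 in MIM-Astrocytes against Astrocytes (median 2.05, background 34.8%) and in 6 of 6 in Glioblastoma (median 1.92, background 47.0%). In NSC 5 were higher and E2f1 was lower (background 37.7% higher and 33.4% lower). E2f1 (chr2:154559407-154569892, minus strand), an activating E2F, was at 1.501, 1.58 and 1.23 FPKM in Astrocytes, 0.812, 0.797 and 0.869 in NSC, 2.92, 3.39 and 3.14 in MIM-Astrocytes and 3.46, 3.55 and 3.31 in Glioblastoma. Each NSC library was below 1 FPKM and below each Astrocytes library, a difference of -0.41 (SE 0.07, limma adjusted p = 0.000253). MIM-Astrocytes was higher than Astrocytes by 0.77 (SE 0.07, limma adjusted p = 3.2e-06) and overlapped Glioblastoma, with -0.099 (SE 0.07, limma adjusted p = 0.21) that turned to 0.044 with median-of-ratios scaling.

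E2f2 (chr4:136172394-136196057, plus strand), another activator, changed least of this role in MIM-Astrocytes on this scale. It was at 0.0349, 0.0144 and 0.0770 FPKM in Astrocytes, 0.533, 0.511 and 0.374 in NSC, 0.614, 0.746 and 0.798 in MIM-Astrocytes and 1.53, 1.95 and 1.78 in Glioblastoma. At these low levels the log scale understates the change. The difference was 0.72 (SE 0.07, limma adjusted p = 1.32e-05) from Astrocytes and 0.22 (SE 0.07, limma adjusted p = 0.0274) from NSC. The latter was not called without NSC replicate 3 (0.17, limma adjusted p = 0.0981), without MIM-Astrocytes replicate 2 (0.21, 0.0733) or without MIM-Astrocytes replicate 3 (0.19, 0.0944). E2f2 passed the filter for testing only through its Glioblastoma libraries.

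E2f8 (chr7:48866429-48881596, minus strand), a repressor that E2F factors themselves induce, was at 0.0053, 0 and 0.0105 FPKM in Astrocytes, 1.42, 1.45 and 1.20 in NSC, 3.51, 3.33 and 3.46 in MIM-Astrocytes and 3.09, 3.23 and 2.65 in Glioblastoma. It is listed at 0 in Astrocytes replicate 2 and near it in the other two, so no fold is given. MIM-Astrocytes did not overlap Glioblastoma, with a difference of 0.16 (SE 0.07, limma adjusted p = 0.0578). It was called without Glioblastoma replicate 2 (0.20, limma adjusted p = 0.0337), without NSC replicate 3 (0.16, 0.0447) and with median-of-ratios scaling (0.29, 0.00222).

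Cyclin E binds Cdk2 and drives the step into S phase. Ccne1 (chr7:38097984-38107534, minus strand) was at 0.451, 0.497 and 0.424 FPKM in Astrocytes, 0.841, 1.08 and 0.976 in NSC, 4.27, 5.18 and 4.64 in MIM-Astrocytes and 4.54, 4.38 and 3.96 in Glioblastoma. Ccne2 (chr4:11191351-11204779, plus strand) was at 0.980, 0.814 and 1.27 FPKM in Astrocytes, 3.74, 3.46 and 2.76 in NSC, 12.7, 16.5 and 14.7 in MIM-Astrocytes and 7.29, 8.19 and 7.66 in Glioblastoma. Ccne2 was highest in MIM-Astrocytes, above Glioblastoma by 0.84 (SE 0.12, limma adjusted p = 9.87e-05), whereas Ccne1 overlapped there (0.10 (SE 0.07, limma adjusted p = 0.231)). With median-of-ratios scaling Ccne1 was called higher in MIM-Astrocytes as well, by 0.25 (limma adjusted p = 0.00715).

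Tcf19 (chr17:35512734-35516824, minus strand), a PHD finger protein whose transcript peaks at the G1/S boundary, had the highest mean of this role over the 12 libraries. It was at 1.57, 1.97 and 1.46 FPKM in Astrocytes, 2.91, 3.59 and 3.06 in NSC, 21.2, 25.2 and 23.5 in MIM-Astrocytes and 12.99, 12.98 and 12.3 in Glioblastoma. Its difference in MIM-Astrocytes was 3.19 (SE 0.09, limma adjusted p = 5.61e-10) from Astrocytes, 2.54 (SE 0.09, limma adjusted p = 1.28e-08) from NSC and 0.82 (SE 0.09, limma adjusted p = 1.56e-05) from Glioblastoma. The difference from NSC was the largest of the 39 genes in that comparison.

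In MIM-Astrocytes 6 of the 39 were thus called higher than in Glioblastoma: Mcm4, Pcna, Rrm1, Tyms, Ccne2 and Tcf19. Their differences ran from 0.40 (Mcm4) to 0.84 (Ccne2). The 27 called lower included 7 of 9 licensing genes and 9 of 10 polymerase and clamp genes, and the largest on the log2(FPKM + 1) scale were Mcm2 (-1.76 (SE 0.25, limma adjusted p = 0.00011)), Mcm3 (-1.70 (SE 0.09, limma adjusted p = 4.58e-08)) and Prim1 (given above). With a common total 5 of the 27 were no longer called: Rfc2 (-0.11, limma adjusted p = 0.33), Rfc4 (-0.397, 0.0794), Gins4 (-0.19, 0.0753), Lig1 (-0.086, 0.527) and Rrm2 (-0.0010, 0.995). By role, the median difference from Glioblastoma was -1.28 for licensing, -0.54 for helicase activation, -0.86 for polymerases and clamp, -0.59 for lagging strand maturation, -1.02 for chromatin assembly, -0.06 for nucleotide synthesis and 0.13 for the regulators of S phase entry. No test compared the roles, so these medians are a description.

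**Figure D4:**
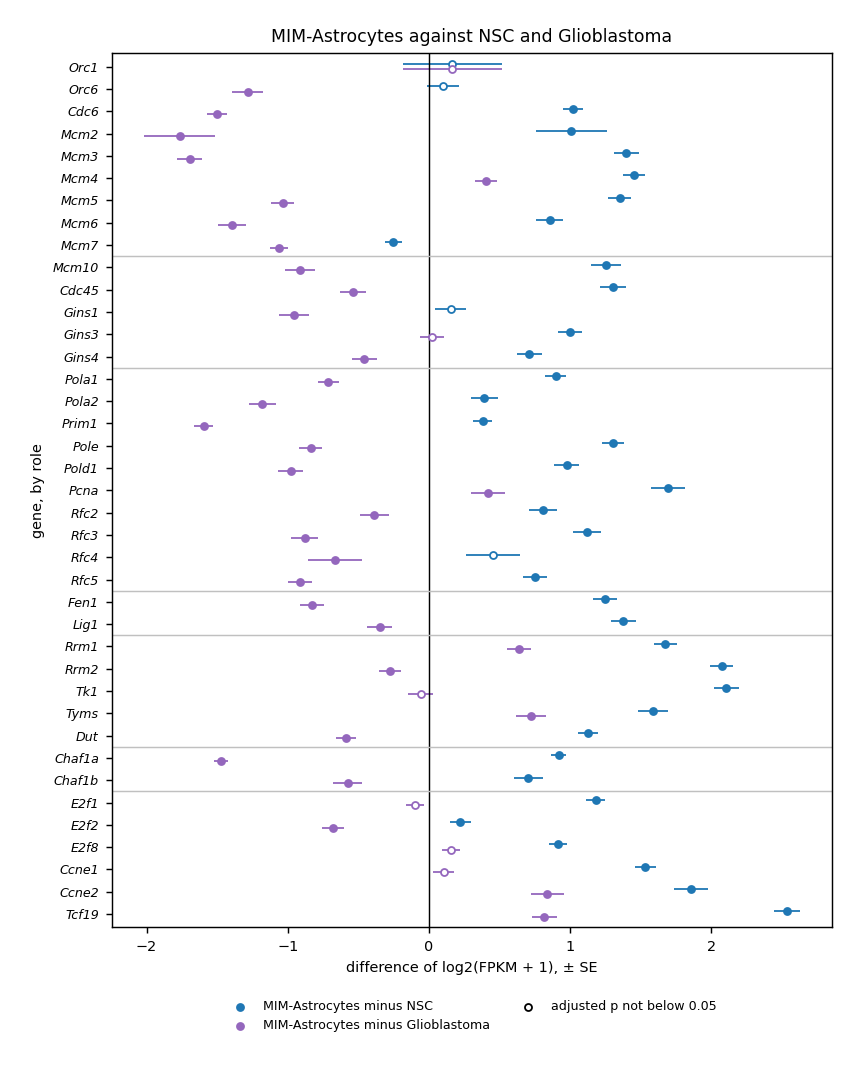
Points are the differences of log2(FPKM + 1) between MIM-Astrocytes and NSC and between MIM-Astrocytes and Glioblastoma, with bars of 1 standard error from limma, and open points have an adjusted p of 0.05 or more. Differences from NSC lie right of 0 except for Mcm7 at -0.25, and differences from Glioblastoma lie left of 0 for most genes, Mcm2 at -1.76 being farthest.

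Ratios of 2 genes within a library, taken as differences of log2(FPKM + 1), depend little on how libraries are scaled, but the added 1 FPKM draws those with a gene below 1 FPKM towards 0. For 7 pairs and 6 comparisons, 42 two-sided exact permutation tests of 3 against 3 libraries could give no p below 0.1, and 35 reached it (0.12 after Benjamini-Hochberg adjustment over the 42). Rrm2 over Rrm2b, the small subunit that p53 induces for use outside S phase, averaged -3.26 ± 0.216 in Astrocytes, -0.41 ± 0.203 in NSC, 1.61 ± 0.325 in MIM-Astrocytes and 1.15 ± 0.141 in Glioblastoma (log2, SD, n = 3). Tk1 over its mitochondrial counterpart Tk2 averaged -1.80, -0.36, 1.88 and 1.48 in the same order. For both ratios the Astrocytes and NSC libraries lay below 0 and those of MIM-Astrocytes and Glioblastoma above it. Chaf1a over Chaf1b averaged 0.98 in Astrocytes and 0.89 in Glioblastoma, but -0.22 in NSC and -0.005 in MIM-Astrocytes, so the 2 subunits had nearly equal levels per length in MIM-Astrocytes. The nearness of Astrocytes and Glioblastoma rests on the added 1, since Chaf1b averaged 0.179 FPKM in Astrocytes: the difference of Glioblastoma from Astrocytes was -0.082 with 1 FPKM added and -1.41 with 0.1. Ccne1 over Ccne2 averaged -1.45 ± 0.0643 in MIM-Astrocytes, against -0.47 ± 0.199 in Astrocytes, and the difference of MIM-Astrocytes from NSC turned from -0.32 to 0.060 with a pseudocount of 0.1. Pola1 over Pole averaged 1.28 in Astrocytes, 0.84 in NSC, 0.44 in MIM-Astrocytes and 0.31 in Glioblastoma. E2f1 over E2f8 was 1.27 in Astrocytes and between -0.37 and 0.16 in the other groups, and Orc1 over Orc2 overlapped between Astrocytes and each of NSC and MIM-Astrocytes.

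Other replication genes moved in the same direction with exceptions. Of 46 tested of 48 listed, 40 were higher and 4 lower in MIM-Astrocytes against Astrocytes (median 1.28, against 0.09 over all tested genes). In NSC 31 were higher and 6 lower, and in Glioblastoma 40 and 3. Of all tested genes, 34.8% were called higher and 26.6% lower in MIM-Astrocytes, 37.7% and 33.4% in NSC, and 47.0% and 31.3% in Glioblastoma. The largest on the log2(FPKM + 1) scale were Pclaf, a PCNA-binding protein (3.36 (SE 0.09, limma adjusted p = 4.04e-10)), the exonuclease Exo1 (3.10), the checkpoint mediator Clspn (2.93) and Dbf4, the activator of the kinase Cdc7 (2.90). Gmnn, the inhibitor of Cdt1, was at 2.17, 2.54 and 2.05 FPKM in Astrocytes, 4.74, 4.69 and 3.90 in NSC, 16.1, 15.5 and 14.7 in MIM-Astrocytes and 16.7, 17.7 and 18.48 in Glioblastoma, a difference of 2.34 in MIM-Astrocytes. The 4 that were lower were the origin recognition subunit Orc3 (-0.83 (SE 0.05, limma adjusted p = 2.7e-07)), Rpa1, Pold4 (-0.39) and Ddb1 (-0.28).

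Rpa1, the large subunit of the protein that coats single-stranded DNA at forks and at sites of repair, was highest in Astrocytes. It was at 74.9, 83.5 and 66.6 FPKM in Astrocytes, 20.98, 22.4 and 17.8 in NSC, 43.7, 48.4 and 46.7 in MIM-Astrocytes and 36.2, 36.4 and 38.2 in Glioblastoma. It was lower than Astrocytes in each other group, with -0.68 (SE 0.10, limma adjusted p = 0.000134) in MIM-Astrocytes, -0.9964 in Glioblastoma and -1.83 in NSC. NSC, not Astrocytes, was the lowest group for Rpa1.

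Other nucleotide synthesis genes went both ways. Of 38 tested of 41 listed, 21 were higher and 12 lower in MIM-Astrocytes against Astrocytes (median 0.30), 14 and 13 in NSC (median 0.05), and 28 and 7 in Glioblastoma (median 0.72). These are 55.3% and 31.6% in MIM-Astrocytes (background 34.8% and 26.6%), 36.8% and 34.2% in NSC, near the background of 37.7% and 33.4%, and 73.7% and 18.4% in Glioblastoma (background 47.0% and 31.3%). Those higher included the pyrophosphatase Dctpp1 (2.72), deoxycytidine kinase Dck (1.98) and Umps of uridine synthesis (1.36). Samhd1, which degrades deoxynucleotides, was lower in MIM-Astrocytes, with -1.41 (SE 0.10, limma adjusted p = 4.88e-07), at 12.8, 13.7 and 12.5 FPKM in Astrocytes, 3.17, 3.13 and 2.61 in NSC, 4.46, 3.77 and 4.62 in MIM-Astrocytes and 4.78, 4.70 and 5.95 in Glioblastoma. The cytidine and uridine enzymes Ctps (-1.19) and Uck2 (-1.10) were lower as well. Rrm2b was called lower although its groups overlapped (-0.54 (SE 0.19, limma adjusted p = 0.0282)).

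Among 25 tested E2F, pocket protein and G1/S cyclin genes outside the 39, 18 were higher and 3 lower in MIM-Astrocytes against Astrocytes (median 0.84), 17 and 6 in NSC, and 18 and 5 in Glioblastoma. Cyclin A2, Ccna2, which acts in S phase and G2, was at 2.94, 2.90 and 2.90 FPKM in Astrocytes, 19.5, 19.5 and 17.8 in NSC, 55.4, 58.8 and 54.2 in MIM-Astrocytes and 46.2, 45.5 and 47.8 in Glioblastoma (3.87 (SE 0.05, limma adjusted p = 5.49e-12) in MIM-Astrocytes). Rbl1, the pocket protein p107, was higher by 2.22, Cks1b by 1.90 and Mybl2 by 1.72, whereas Rbl2, the pocket protein of quiescent cells, was lower (-0.47), as were the complex member Lin52 (-0.61) and the Cdk inhibitor Cdkn1b (-0.30). Another Cdk inhibitor, Cdkn1a, was higher in MIM-Astrocytes than in Astrocytes, with 0.84 (SE 0.05, limma adjusted p = 1.74e-07), and averaged 11.2 ± 0.716 FPKM in Astrocytes, 5.86 ± 0.0665 in NSC, 20.8 ± 0.709 in MIM-Astrocytes and 10.7 ± 0.301 in Glioblastoma (SD, n = 3). It was called higher in MIM-Astrocytes than in each of the other groups. E2f7, the partner repressor of E2f8, was at 0, 0 and 0.0137 FPKM in Astrocytes, 0.681, 0.907 and 1.41 in NSC, 1.25, 1.64 and 2.40 in MIM-Astrocytes and 2.38, 3.38 and 2.32 in Glioblastoma. Rb1, the retinoblastoma protein, had a difference of -0.25 (SE 0.10, limma adjusted p = 0.0628) in MIM-Astrocytes, and was lower in Glioblastoma, with -1.05 (SE 0.10, limma adjusted p = 4.89e-06).

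Mitosis genes separated the groups differently from the replication genes. All 32 tested were higher than Astrocytes in MIM-Astrocytes (median 4.30), NSC (median 2.73) and Glioblastoma (median 3.90), and all 32 were higher in MIM-Astrocytes than in NSC (median 1.40). Of all tested genes, 34.8%, 37.7% and 47.0% were called higher than Astrocytes in these groups, and 31.0% in MIM-Astrocytes against NSC. Mki67, the proliferation antigen Ki-67, was at 0.0982, 0.128 and 0.110 FPKM in Astrocytes, 21.6, 19.6 and 19.6 in NSC, 52.9, 51.3 and 51.5 in MIM-Astrocytes and 22.2, 22.2 and 20.98 in Glioblastoma. Against Glioblastoma, MIM-Astrocytes was higher in 18 of the 32 mitosis genes and lower in 5, with a median of 0.29, whereas it was higher in 6 and lower in 27 of the 39 replication genes, with a median of -0.66. Of all tested genes, 28.3% were called higher and 41.5% lower there, with a median of -0.13. Mki67 was among the 18 higher, by 1.22. Top2a, which had the largest difference of the 32 in MIM-Astrocytes against Astrocytes (6.28), was among the 5 lower. It averaged 149.7 FPKM in MIM-Astrocytes and 182.9 in Glioblastoma (-0.29 (SE 0.07, limma adjusted p = 0.00418)). A comparison chosen after the values were seen took the median log2 level of the replication genes minus that of the mitosis genes in each library. It was 0.74 to 0.83 in Astrocytes, -0.13 to -0.07 in Glioblastoma, -0.63 to -0.51 in NSC and -1.07 to -0.92 in MIM-Astrocytes, so the replication genes were highest relative to mitosis genes in Astrocytes and lowest in MIM-Astrocytes, and no ranges overlapped.

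**Figure D5:**
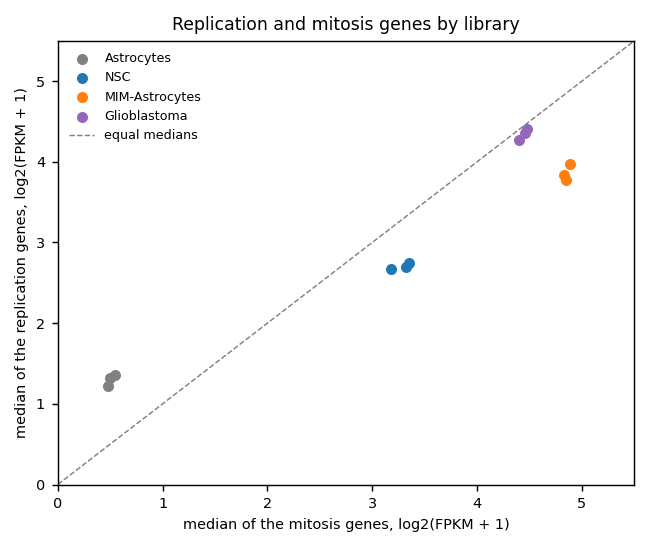
Each point is a library, with the median of the 32 mitosis genes on the horizontal axis and that of the 39 replication genes on the vertical axis, both as log2(FPKM + 1). The dashed line marks equal medians: Astrocytes lie above it, Glioblastoma lies just below it, and NSC and MIM-Astrocytes lie further below.

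Precision was read from the intervals that the authors' tables give, since they hold no counts. The interval reached a median of 6.45% of the value to each side at 10 FPKM or more (202 values), 13.5% between 1 and 10 FPKM (211 values) and 38.99% below 1 FPKM (54 values). The exons of 14 members overlap a gene on the opposite strand, and since the strandedness of the libraries is not given, signal of the pair cannot be told apart. These are Orc1, Orc6, Mcm7, Cdc45, Pole, Rfc2, Rfc4, Rfc5, Fen1, Lig1, Tk1, Chaf1a, E2f8 and Ccne2.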

How the data were processed

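Gene-level FPKM of total RNA were deposited for 12 libraries, 3 in each of 4 groups. Cufflinks on GRCm38 is named in the submitters' processing notes, and per the file headers the authors' values are FPKM with an interval and a status. The aligner, annotation release, strandedness and filters are not given in the sources used here. Each table had 53989 lines, and values of the 45 identifiers on more than 1 line, Dut among them, were added. GENCODE release M21 gave strands and exon overlaps. Genes reaching 1 FPKM in at least 3 libraries with status OK in all 12 were tested (16982), as log2(FPKM + 1), with limma 3.58.1 in R 4.3.3, 1 mean per group, 8 residual degrees of freedom and a trended variance prior. P-values of the 6 comparisons were adjusted over all tested genes (Benjamini-Hochberg), with calls below 0.05. Tests were two-sided, and the fit was tested on simulated data. Python 3.11.15 with NumPy 2.4.6, pandas 2.3.3 and matplotlib 3.10.9 served for tables and figures.

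The members, gene lists and rules were chosen with earlier results of these data known. Named were, per role, the member with the highest mean and those with the largest and smallest MIM difference, in each comparison the 3 largest differences each way, members not called against Astrocytes, and, per other list, up to 4 of the largest differences in MIM-Astrocytes and up to 3 of the opposite sign or not called, with a few fixed genes. All other members were then given by role. Alternatives were pseudocounts of 0.1 and 0.5, filters, 4 scalings, array weights, only the 2 groups compared, a threshold of 0.01, a replicate block and leaving out each library.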

Additional observations from a re-analysis of the deposited data

How the results depend on the processing

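Of 234 member differences (39 genes in 6 comparisons), 206 kept their direction and their side of the threshold under each alternative run for them, and 28 did not in at least 1. Of the 206, 170 were run under all 23 alternatives and 36 under 22, since 8 genes (Ccne1, Cdc6, Chaf1b, E2f1, E2f2, E2f8, Gins3 and Orc1) have a mean below 5 FPKM and drop out of the stricter filter. The cause of the changes under these alternatives was not tested. The median log2 difference of the members was 2.68 with a pseudocount of 0.1, 2.33 with 0.5, 2.34 with a mean of at least 5 FPKM, 1.97 with median-of-ratios scaling and 1.84 with a common total in MIM-Astrocytes against Astrocytes. In NSC against Astrocytes it was 1.31 and 1.13 with those pseudocounts, 0.72 with a common total and 1.17 with a protein-coding total. In Glioblastoma against Astrocytes it was 3.27 and 2.86 with the pseudocounts, 2.35 with median-of-ratios and with quantile scaling, 2.12 with a common total, 2.47 with a protein-coding total and 2.57 to 2.71 with 1 library left out. In MIM-Astrocytes against NSC it was 1.28 and 1.18 with the pseudocounts and 1.13 with a mean of at least 5 FPKM. In Glioblastoma against NSC these were 1.84, 1.71 and 1.72, with 1.39 for median-of-ratios, 1.37 for quantile, 1.40 for common total and 1.32 for protein-coding total scaling. In MIM-Astrocytes against Glioblastoma it was -0.83 with a mean of at least 5 FPKM, -0.48, -0.46, -0.40 and -0.50 with those 4 scalings, and -0.69 to -0.58 with 1 library left out. Members lower were 1 in NSC against Astrocytes with a mean of at least 5 FPKM, where fewer genes are tested, and 0 in MIM-Astrocytes against NSC with a common total. A common total moved the median of all tested genes from 0.23 to -0.26 in Glioblastoma against Astrocytes, from 0.07 to -0.24 in NSC and from 0.09 to -0.17 in MIM-Astrocytes, and median-of-ratios scaling brought the first to -0.0096.

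Signs turned with a common total for Gins4 in MIM-Astrocytes against Astrocytes (-0.040) and, in NSC against Astrocytes, for Fen1 (-0.16), Dut (-0.030) and Orc6 (-0.014). Orc1 turned with array weights against Astrocytes, to -0.17 (MIM-Astrocytes), -0.44 (NSC) and -0.40 (Glioblastoma). In MIM-Astrocytes against NSC, Orc6 turned with a protein-coding total (-0.043) and Orc1 ranged from -0.021 to 0.37 with 1 library left out. In Glioblastoma against NSC, Orc1 turned with median-of-ratios (-0.14), common total (-0.13) and protein-coding total (-0.19) scaling and ranged from -0.14 to 0.083 with 1 library left out. In MIM-Astrocytes against Glioblastoma, Tk1 turned with median-of-ratios (0.12), quantile (0.13), common total (0.21) and protein-coding total (0.11) scaling and ranged from -0.12 to 0.019 with 1 library left out, and E2f1 turned with median-of-ratios (0.044), common total (0.11) and protein-coding total (0.030) scaling. There Gins3 turned with array weights (-0.016) and ranged from -0.017 to 0.065 with 1 library left out, and Orc1 from -0.023 to 0.37. Of the ratios, Ccne1 over Ccne2 turned with a pseudocount of 0.1 in Glioblastoma against Astrocytes (0.16) and MIM-Astrocytes against NSC (0.060), and Orc1 over Orc2 in MIM-Astrocytes against Astrocytes with pseudocounts of 0.1 (0.51) and 0.5 (0.088), with a range of -0.40 to 0.32 when 1 library was left out.

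Replicate numbers are shared by the groups but are not said to pair libraries, and same-number libraries deviated from their group means with correlations of -0.058 to 0.097. With the replicate number as a block, the members called higher against Astrocytes were 38 (MIM-Astrocytes), 34 (NSC) and 38 (Glioblastoma), the same counts as without it, and no count in the other comparisons moved. The ratio of Cdt1 to Gmnn was not run. The files hold no counts, so depth is known only through the authors' intervals, which are widest below 1 FPKM.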

Other observations

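Genes of the DNA damage and replication stress response, on a list of 18, followed the replication genes in part. In MIM-Astrocytes against Astrocytes 15 of 18 tested were higher and 0 lower (median log2 difference 1.16, background 34.8% and 26.6%). In NSC these were 14 and 0 (median 0.52, background 37.7% and 33.4%), and in Glioblastoma 18 and 0 (median 1.65, background 47.0% and 31.3%). Largest in MIM-Astrocytes were the Fanconi anemia genes Fancd2 (2.83 (SE 0.08, limma adjusted p = 7.16e-10)) and Fanci (2.79), the recombination gene Brca1 (2.70) and the checkpoint kinase Chek1 (2.61). Chek1 was at 1.04, 0.751 and 0.775 FPKM in Astrocytes, 4.38, 4.97 and 4.14 in NSC, 11.5, 9.65 and 9.84 in MIM-Astrocytes and 25.3, 24.2 and 26.7 in Glioblastoma, and the 4 groups did not overlap. Those not called in MIM-Astrocytes were Rad9a, Atr and Atrip. Atr, the kinase that senses stalled forks, was at 7.84, 7.33 and 7.52 FPKM in Astrocytes, 9.57, 9.92 and 9.57 in NSC, 8.26, 7.37 and 7.39 in MIM-Astrocytes and 15.2, 15.6 and 16.2 in Glioblastoma. It was higher than Astrocytes in Glioblastoma (0.96 (SE 0.05, limma adjusted p = 3.2e-08)) and in NSC (0.32), with 0.017 (SE 0.05, limma adjusted p = 0.796) in MIM-Astrocytes, which was lower than NSC at -0.30 (SE 0.05, limma adjusted p = 0.000584). Atrip, the partner of Atr, was likewise lower in MIM-Astrocytes than in NSC (-0.31 (SE 0.11, limma adjusted p = 0.0421)). The clamp subunit Rad9a was at 2.35, 2.002 and 2.01 FPKM in Astrocytes, 2.46, 2.35 and 2.12 in NSC, 1.89, 2.50 and 1.77 in MIM-Astrocytes and 6.42, 6.99 and 6.59 in Glioblastoma, so that Glioblastoma stood above the other groups, which overlapped.

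The processed copy Pcna-ps2 was listed at 5.27 to 8.56 FPKM in Astrocytes, 6.84 to 8.08 in NSC, 21.0 to 23.3 in MIM-Astrocytes and 1.45 to 1.62 in Glioblastoma. It was chosen after its values were seen. Pcna itself had 125 ± 14.8 FPKM in MIM-Astrocytes and 93.2 ± 4.67 in Glioblastoma (SD, n = 3). Pcna-ps1 and Rrm2-ps1 were listed at 0 in all 12 libraries.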
